A study of Homo sapiens with 18 samples.

Results

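The 73 genes described here encode proteins of the human cytosolic ribosome. They were all protein-coding genes on chromosomes 1 to 22 of hg19 named RPL or RPS with a number and at most one letter A, plus RPLP0, RPLP1, RPLP2 and RPSA, and made up 73 of 19229 protein-coding genes on those chromosomes. Of these, 30 encode proteins of the small subunit and 43 proteins of the large subunit. They lay on 20 chromosomes, with 12 on chromosome 19. RPL10, RPL36A, RPL39 and RPS4X lie on the X chromosome and were not members. Names with further letters, such as RPL3L, were treated as paralogues.

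The study mapped the linker histone isotypes H1.2 and H1.5 in undifferentiated HL-60/S4 cells, a human myeloid leukemia line, by chromatin immunoprecipitation and sequencing. In xChIP the cells were fixed with formaldehyde and permeabilized, and the chromatin was sonicated before the antibody was added. In xxChIP the antibody was bound to the fixed and permeabilized cells, which were fixed again before sonication. Each of the 4 combinations of method and isotype had 3 immunoprecipitated replicates, and 6 Input samples accompanied them. All samples came from the same untreated line, and both rabbit polyclonal antibodies recognize the N-terminal part of their isotype. The deposited values were 1 list of peak positions for each combination, merged by the authors over its 3 replicates. Such lists give no error between replicates, and no test between methods or isotypes was possible. Peak positions hold no expression values, so the labelled cell line could not be checked against marker genes.

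Ribosomal protein genes are short, transcribed at high levels in growing cells and spread over nearly all chromosomes, and their products are made in nearly equal amounts. Their transcripts usually begin with an unbroken run of pyrimidines, the terminal oligopyrimidine (TOP) tract, through which growth signals control their translation. Linker histones bind where DNA enters and leaves the nucleosome and help to fold the nucleosome chain. An antibody bound before sonication reaches only epitopes that are exposed in the fixed nucleus.

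At the promoters of these genes, here the 1000 bp on either side of the gene start, xChIP H1.2 peaks were common and xxChIP peaks were nearly absent. An xChIP H1.2 peak overlapped the promoter of 56 of the 73 genes (76.7%, 95% Wilson interval 65.8% to 84.9%), against 49.3% of all protein-coding genes. An xChIP H1.5 peak overlapped 26 promoters (35.6%, interval 25.6% to 47.1%), against 22.1% of all genes. An xxChIP H1.2 peak overlapped 0 of 73 promoters, a count that allows a share of up to 4.11%, against 8.89% of all genes. An xxChIP H1.5 peak overlapped 1 promoter, that of RPS26, or 1.37%, against 8.06% of all genes. An xChIP peak of either isotype without any xxChIP peak was found at 59 promoters (80.8%), against 49.5% of all genes. The intervals cover counting error over genes only.

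Promoters differed in which xChIP isotype marked them. Both isotypes overlapped 22 promoters, against 15.0% of all genes, and H1.2 without H1.5 overlapped 34, or 46.6%, against 34.3%. H1.5 without H1.2 overlapped 4, among them those of RPL37A, RPLP1 and RPS7, or 5.48% against 7.10% of all genes. The share with H1.5 alone was thus close to the background, while the shares with H1.2 lay above it. No list had a peak at 13 promoters (17.8%), against 36.7% of all genes. Among those 13 were RPL26, RPL27A, RPL31, RPL34, RPL41, RPL5, RPL7, RPS15A, RPS16, RPS23, RPS6 and RPS9. An xChIP H1.2 peak covered 37 promoters from end to end, against 30.4% of all genes, and an xChIP H1.5 peak covered 7, against 5.85%.

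**Figure D1:**
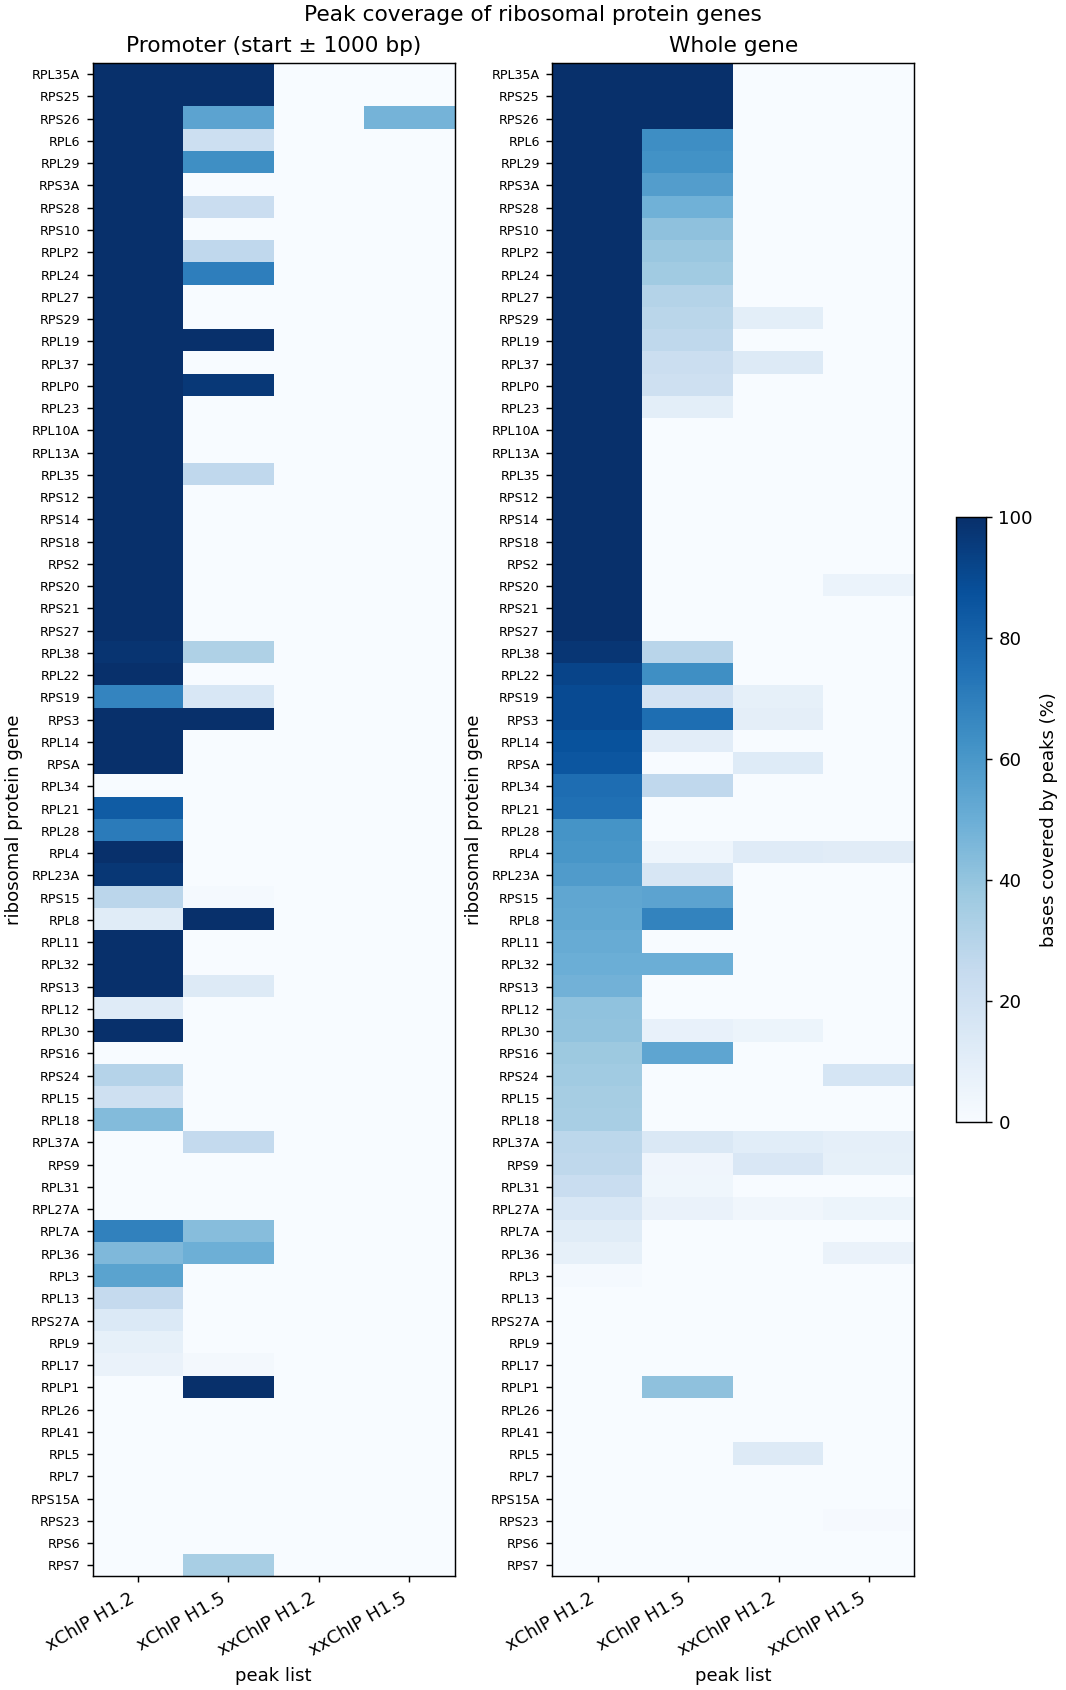
Percent of bases covered by peaks in 68 of the 73 ribosomal protein genes (rows) for the 4 peak lists (columns), for the promoter (left) and the whole gene (right). The xChIP H1.2 column is filled for most genes, and the xxChIP columns are blank at every promoter shown except RPS26 in xxChIP H1.5.

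Starts and promoters carry the sequence features that these genes share, so 11 of them are shown. The first 8 are the 20 bases before and the 20 bases from the start of the Ensembl canonical transcript, read from hg19. They belong to the 3 P-stalk genes RPLP0, RPLP1 and RPLP2, to RPSA, RPS14 and RPS6, and to RPS25 and RPL35A, whose genes were covered completely in both xChIP lists. RPLP0 lies at chr12:120638895-120638934 on the minus strand, RPLP1 at chr15:69745137-69745176 on the plus strand, RPLP2 at chr11:809947-809986 on the plus strand and RPSA at chr3:39448191-39448230 on the plus strand. RPS14 lies at chr5:149829283-149829322, RPS6 at chr9:19380215-19380254 and RPS25 at chr11:118889034-118889073, all on the minus strand, and RPL35A at chr3:197677041-197677080 on the plus strand. The capitals mark the run of C and T that begins at the annotated start.
RPLP0: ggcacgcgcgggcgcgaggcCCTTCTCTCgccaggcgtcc
RPLP1: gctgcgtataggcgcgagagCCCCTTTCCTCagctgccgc
RPLP2: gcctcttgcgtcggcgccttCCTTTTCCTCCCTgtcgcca
RPSA: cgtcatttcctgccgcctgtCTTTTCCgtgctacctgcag
RPS14: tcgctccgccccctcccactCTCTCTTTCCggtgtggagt
RPS6: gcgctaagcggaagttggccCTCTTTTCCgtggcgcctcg
RPS25: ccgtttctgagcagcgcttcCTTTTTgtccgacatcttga
RPL35A: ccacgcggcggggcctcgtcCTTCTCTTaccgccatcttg

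The run of C and T had a median length of 7 bases over the 73 canonical starts and reached 16 bases. It began with C and was at least 5 bases long at 55 of the 73 starts (75.3%), against 4.54% of all genes with a canonical transcript. Starts with such a run occurred among genes with different peak patterns. RPS25 and RPL35A were covered by both xChIP isotypes, RPLP1 by xChIP H1.5 alone, RPS14 by xChIP H1.2 alone and RPS6 by no list.

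Of 4 motifs searched on both strands from 250 bases before to 50 bases after the canonical start, the ETS core CCGGAAG occurred at 25 of the 73 genes (34.2%), against 14.1% of all genes. The YY1 core ATGGCGG occurred at 14 (19.2%), against 7.80%. The TATA box TATAAA occurred at 6 (8.22%) and the GC box GGGCGG at 42 (57.5%), against 9.80% and 61.4% of all genes. The windows of 3 members are printed from 250 bases before to 30 bases after the canonical start, with motif matches in capitals. RPS26 (chr12:56435452-56435731, plus strand) was the member with an xxChIP promoter peak, RPL19 (chr17:37356286-37356565, plus strand) was covered by both xChIP isotypes, and RPS9 (chr19:54704476-54704755, plus strand) was the longest member without a promoter peak.
RPS26: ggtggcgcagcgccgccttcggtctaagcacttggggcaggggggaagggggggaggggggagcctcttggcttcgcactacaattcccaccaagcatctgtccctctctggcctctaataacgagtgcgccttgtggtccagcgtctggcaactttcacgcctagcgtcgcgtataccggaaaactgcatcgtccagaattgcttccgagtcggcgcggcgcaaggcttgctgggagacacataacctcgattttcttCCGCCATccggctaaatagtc
RPL19: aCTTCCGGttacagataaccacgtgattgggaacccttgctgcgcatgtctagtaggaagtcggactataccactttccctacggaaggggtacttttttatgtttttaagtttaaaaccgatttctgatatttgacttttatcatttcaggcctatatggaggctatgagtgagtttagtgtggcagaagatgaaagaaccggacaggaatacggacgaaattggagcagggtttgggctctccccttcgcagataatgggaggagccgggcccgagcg
RPS9: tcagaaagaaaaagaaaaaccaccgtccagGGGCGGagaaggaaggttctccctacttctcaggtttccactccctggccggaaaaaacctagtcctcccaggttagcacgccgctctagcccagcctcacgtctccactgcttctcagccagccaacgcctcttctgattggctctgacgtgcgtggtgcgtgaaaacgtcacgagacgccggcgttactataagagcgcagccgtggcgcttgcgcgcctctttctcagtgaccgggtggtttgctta
The capitals mark a YY1 core on the minus strand in RPS26, an ETS core on the minus strand in RPL19 and a GC box in RPS9. A match is a run of letters and was not tested as a binding site.

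The members are short, so genes of similar promoter GC and length were set beside them. Their median length was 5330 bp (1378 to 80356 bp), against 27568 bp over all genes, and their promoter GC averaged 54.3% ± 5.54 (SD, n = 73), against 54.5%. For each member, all other genes with a promoter GC within 3 percentage points and a length within 1.5 times were taken, 97 to 1295 genes each. On average, xChIP H1.2 peaks covered 61.6% ± 44.7 (SD, n = 73) of a member's promoter, 43.6% of the promoters of similar genes and 38.6% of those of all genes. For xChIP H1.5 the averages were 18.2% ± 32.8, 12.9% and 11.9%. For xxChIP H1.2 they were 0%, 3.85% and 4.27%, and for xxChIP H1.5 0.651% ± 5.56, 4.61% and 4.11%. Members therefore lay 18.0 points above similar genes in xChIP H1.2, 5.33 above in xChIP H1.5, and 3.85 and 3.96 points below in xxChIP H1.2 and H1.5. The SDs are those between genes, and 45 of 73 members lay above their similar genes in xChIP H1.2, 24 of 73 in xChIP H1.5.

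On average over whole genes, members again lay above similar genes and all genes in both xChIP lists and below them in both xxChIP lists. In xChIP H1.5 the median of the members lay below that of all genes. It was 0%, against 10.6% over all genes, which are longer. The median of similar genes was not counted. There 28 members lay above the mean of their similar genes and 45 below, among them the 37 members without a peak in the gene. In xChIP H1.2, 45 lay above and 28 below. Average coverage in members, similar genes and all genes was 59.1% ± 41.2, 40.8% and 37.9% by xChIP H1.2, and 20.1% ± 28.5, 12.5% and 15.0% by xChIP H1.5. It was 1.79% ± 4.36, 5.71% and 10.5% by xxChIP H1.2, and 0.883% ± 2.92, 5.95% and 8.92% by xxChIP H1.5 (SD, n = 73 for each). The peaks covered 27.0%, 16.7%, 20.5% and 17.5% of the autosomes in these lists, so the xxChIP lists were not smaller as a whole than the xChIP H1.5 list. Any xChIP H1.2 peak overlapped 58 of the 73 genes (79.5%), against 67.5% of similar genes and 83.9% of all genes, and any xChIP H1.5 peak 36 (49.3%), against 40.1% and 71.1%. For xxChIP H1.2 the count was 12 (16.4%), against 24.7% and 61.3%, and for xxChIP H1.5 it was 8 (11%), against 25.0% and 58.6%. These shares were below those of all genes, which are longer, in all 4 lists, while against similar genes they were higher in both xChIP lists and lower in both xxChIP lists. An xChIP H1.2 peak covered 28 members completely (38.4%), against 21.6% of similar genes and 10.6% of all genes. No peak of any list was held by 11 members (15.1%), against 19.2% of similar genes and 8.25% of all genes.

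**Figure D2:**
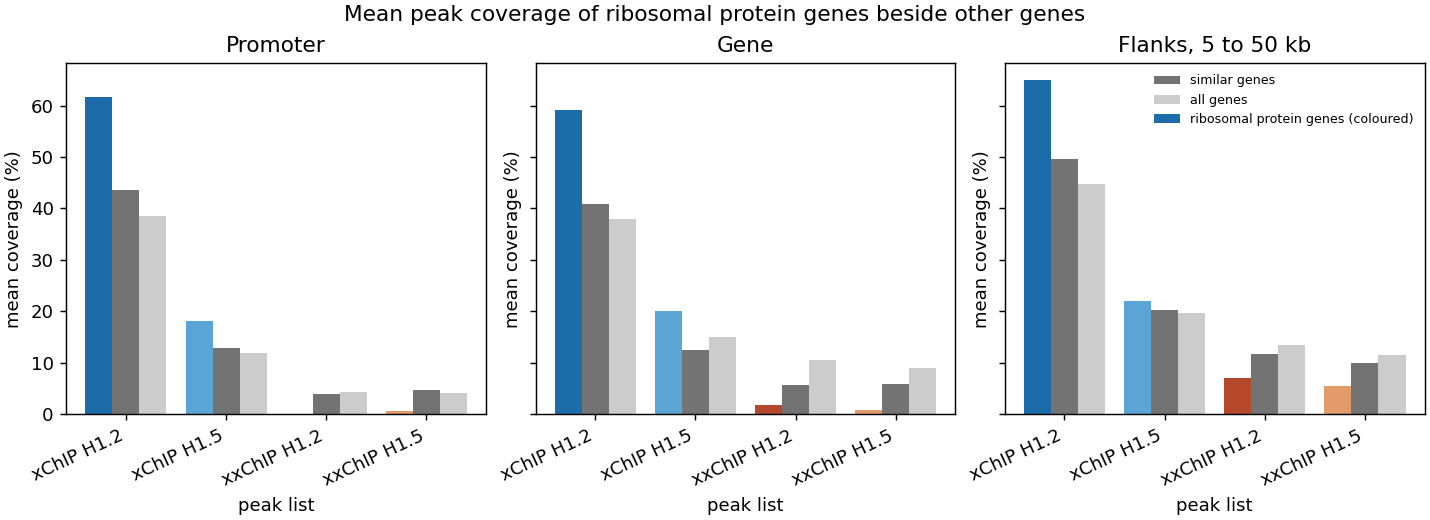
Mean percent of bases covered by peaks in the 73 ribosomal protein genes (coloured), in genes of similar promoter GC and length (dark grey) and in all protein-coding genes (light grey), for promoters, genes and flanks. In xChIP H1.2 the members stand above both in all 3 panels, and in the xxChIP lists they stand below both.

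On average, the surroundings of the genes differed in the same direction, though little in xChIP H1.5. In the flanks, here the bases between 5 and 50 kb on either side of the gene, xChIP H1.2 peaks covered 65.0% ± 23 (SD, n = 73) around members, 49.5% around similar genes and 44.8% around all genes. For xChIP H1.5 the values were 22% ± 12.9, 20.3% and 19.7%. In xChIP H1.2, 54 members lay above the mean of their similar genes and 19 below, and in xChIP H1.5 34 above and 39 below. For xxChIP H1.2 they were 7.11% ± 5.62, 11.6% and 13.5%, and for xxChIP H1.5 5.56% ± 4.26, 10.0% and 11.5%. When similar genes also had to match the member's flank coverage by the same list within 10 points, the promoter difference in xChIP H1.2 was 3.72 points in place of 18.0, and the gene difference 5.19 in place of 18.3. In xChIP H1.5 these were 4.71 and 7.14 points, close to the 5.33 and 7.58 without that condition. In xxChIP H1.2 the promoter difference was -2.44 points and in xxChIP H1.5 -2.22, both still below 0. A long peak can cover both a gene and its flanks, so matching on the flanks matches in part on the same peaks.

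The xChIP H1.2 coverage came mostly from long peaks. The start of 43 of the 73 genes (58.9%) lay inside an xChIP H1.2 peak, against 37.7% of all genes. Those peaks had a median length of 54461 bp (1616 to 191563 bp), and 33 of them were at least 20 kb long. Without peaks of 20 kb or more, 18 promoters kept an xChIP H1.2 peak in place of 56, mean gene coverage was 14.3% in place of 59.1%, and the members minus similar genes came to -1.74 points at the promoter and -2.36 over the gene. The start of 11 genes (15.1%) lay inside an xChIP H1.5 peak, against 10.4% of all genes. The xChIP H1.5 peaks at these starts had a median length of 8652 bp, and 1 of them reached 20 kb. In xChIP H1.5 the difference without long peaks was 6.95 points at the promoter and 7.59 over the gene.

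**Figure D3:**
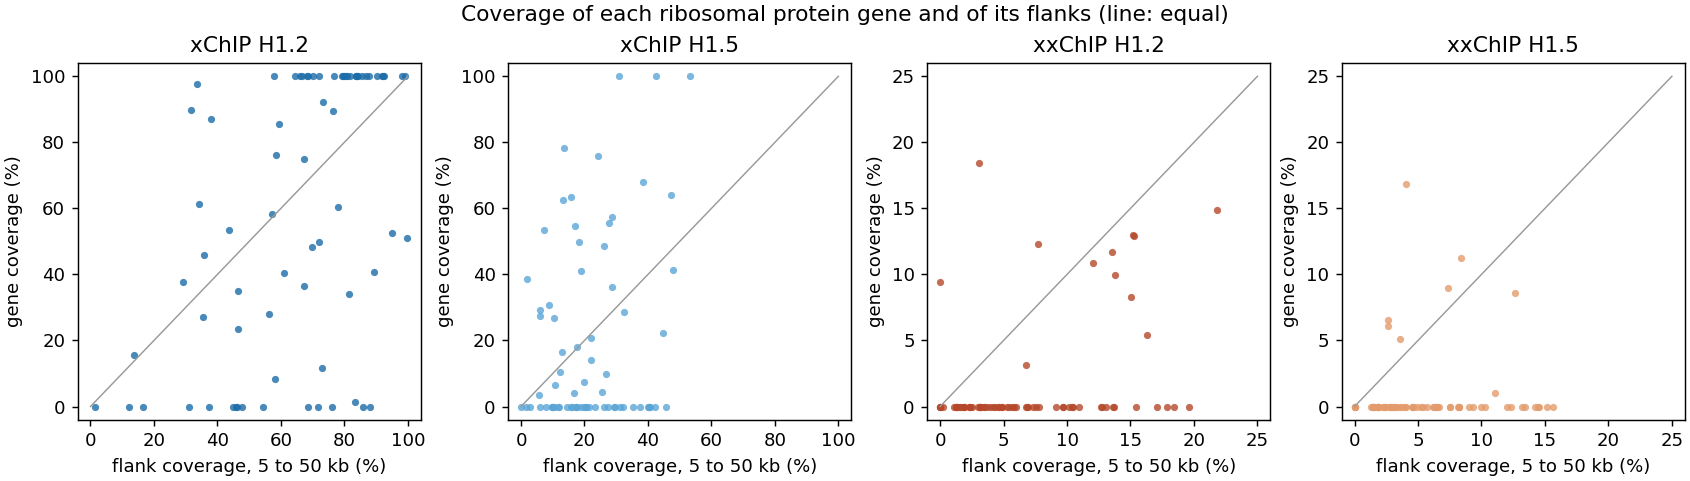
Percent of bases covered in each of the 73 genes (vertical) against that of its flanks from 5 to 50 kb (horizontal), 1 panel per peak list; the line marks equal coverage. The xChIP H1.2 points gather at 100% with flanks mostly above 60%, and most xxChIP points lie at 0.

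Across the 73 genes, coverage of the gene and of its flanks by xChIP H1.2 had Pearson's r of 0.48 and Spearman's rho of 0.51, and by xChIP H1.5 0.23 and 0.11. These describe genes that share peak lists and, in part, neighbourhoods. A single long peak can also cover a gene, its promoter and part of its flanks. Coverage of the gene or promoter and of the flanks is therefore not independent, and part of their relation is built in. Members with an xChIP H1.2 promoter peak had flanks covered to a median of 76.6% (31.6% to 99.8%, n = 56), and those without one to a median of 37.4% (1.35% to 76.1%, n = 17), so the ranges overlapped. Their median lengths were 4853 and 5698 bp and their median promoter GC 53.4% and 54.2%. In xxChIP H1.2, 67 members were covered less than their flanks and 3 more, and in xxChIP H1.5 62 less and 6 more. Of all genes, which are longer, 63.6% and 63.9% were covered less than their flanks in these 2 lists. A gene without a peak lies below any covered flank, and 61 and 65 members held no peak of these lists. The share among genes of similar length was not counted.

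Within 10 kb of the start, xChIP H1.2 coverage of the members ranged from 54.4% to 69.9% by position. It averaged 66.4% from 10 to 5 kb upstream, 60.1% within 500 bp of the start and 63.5% from 5 to 10 kb downstream, against 45.9%, 38.0% and 41.8% for all genes. In xChIP H1.5 it was 18.6%, 15.8% and 19% at the same positions, against 19.7%, 10.9% and 17.2%. In xxChIP H1.2 it was 5.88%, 0% and 2.90%, against 13.5%, 3.84% and 11.9%, and no member was covered anywhere from 1500 bp upstream to 1500 bp downstream. In xxChIP H1.5 it was 4.70%, 0.618% and 2.55%, against 11.2%, 3.79% and 9.84%, and no member was covered from the start to 1300 bp downstream. Low xxChIP coverage at the start was shared by all genes, and the members were lower at each of these positions.

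**Figure D4:**
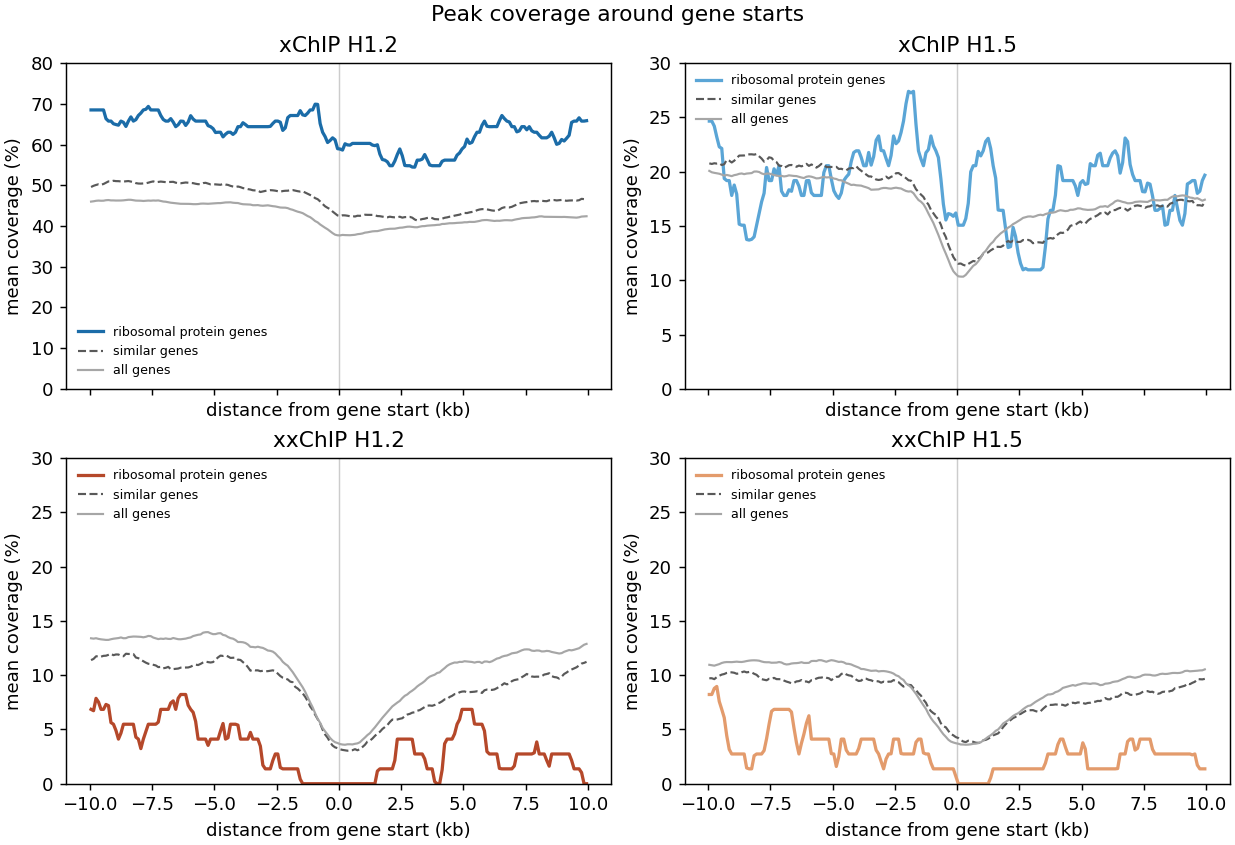
Mean percent of genes covered by peaks (vertical, different scale for xChIP H1.2) at each distance from the gene start in kb (horizontal), upstream to the left, for the 73 ribosomal protein genes (coloured), similar genes (dashed) and all genes (grey). The members run above the other lines in xChIP H1.2 and below them in both xxChIP lists.

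The nearest xxChIP H1.2 peak lay a median of 15355 bp from the start of a member (1515 to 119793 bp), against 7166 bp for all genes. The nearest xxChIP H1.5 peak lay a median of 16665 bp away (50 to 104686 bp), against 8446 bp. It was more than 10 kb away for 48 and 51 members, or 65.8% and 69.9%, against 39.1% and 44.7% of all genes. The farthest xxChIP H1.2 peak was that of RPLP2.

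**Figure D5:**
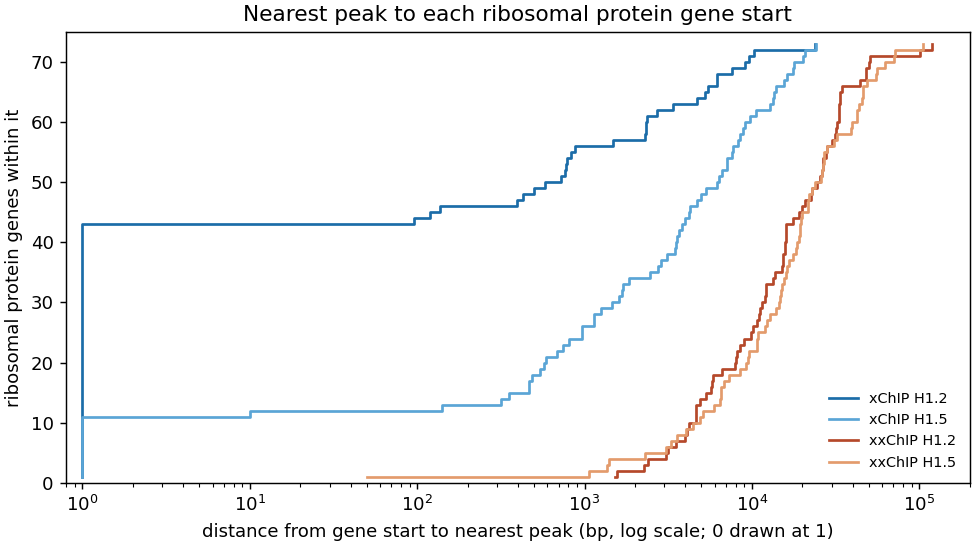
Number of the 73 ribosomal protein genes (vertical) whose start lies within a given distance in bp of a peak (horizontal, log scale, 0 drawn at 1), 1 line per peak list. The xChIP H1.2 line begins at 43 genes with the start inside a peak, and both xxChIP lines rise beyond 1000 bp for all but 1 gene.

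RPS26, a small subunit protein of the mRNA exit channel and a Diamond-Blackfan anemia gene, was the only member with an xxChIP peak at its promoter. The gene (ENSG00000197728, chr12:56435135-56438481, plus strand) lay inside an xChIP H1.2 peak of 101277 bp at chr12:56387456-56488732. An xChIP H1.5 peak at chr12:56435044-56474027 began 91 bp upstream of the gene start and covered all of the gene. The xxChIP H1.5 peak at chr12:56433456-56435085 ran from position -1679 to -50 relative to the gene start and covered 47.5% of the promoter window. The canonical transcript begins 567 bp farther downstream, and around that start the same peak covered 19.2% of the window. RPS26 was thus covered by 3 of the 4 lists within 2 kb of its start, and xxChIP H1.2 was the list without a peak there.

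The start of the gene record was not the usual start for every member. It differed from the canonical start by more than 1000 bp in 6, namely RPL22, RPL36, RPL4, RPL6, RPL7 and RPS29. At canonical starts, 53 members had an xChIP H1.2 peak, 25 an xChIP H1.5 peak, 0 one of xxChIP H1.2 and 2 one of xxChIP H1.5, against 48.3%, 21.2%, 7.97% and 7.22% of all genes. The added xxChIP H1.5 promoter was that of RPL36, a large subunit protein, with a peak at chr19:5688840-5689947 from position -1466 to -359 relative to the canonical start. RPL4, which lines the exit tunnel of the large subunit, had its promoter window fully covered by xChIP H1.2 at the gene record's start and covered to 0% at its canonical start, 19677 bp away. RPL6 and RPS29 were covered to 100% by xChIP H1.5 at their canonical starts, against 21.6% and 0% at the start of the gene record.

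Most xxChIP peaks inside the genes lay in stretches outside the canonical transcript. The 73 gene records held 20 xxChIP H1.2 peaks in 12 genes and 13 xxChIP H1.5 peaks in 8 genes, of median lengths 1482 and 1898 bp, and 4 genes held both. Of the 16 members of 10 kb or more, 11 held an xxChIP peak, and of the 57 shorter members, 5. The shares over all genes of these lengths were not counted, so this split cannot be called particular to the members. Canonical transcripts, at most 14576 bp long in members, held 5 of the H1.2 peaks and 2 of the H1.5 peaks. The longest gene record, RPL37A (80356 bp), held 4 peaks of each isotype, all at least 16 kb from its start, and RPS9 (48186 bp) held 3 H1.2 and 2 H1.5 peaks, all beyond 26 kb. RPL37A is a zinc-binding protein of the large subunit, and RPS9 lies at the mRNA entry of the small subunit.

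Within canonical transcripts, an xxChIP H1.2 peak overlapped 5 members (6.85%), against 22.9% of similar genes and 57.9% of all genes. An xxChIP H1.5 peak overlapped 2 (2.74%), against 23.4% and 55.6%. Similar genes were still those matched to the length of the gene record. These shares are therefore not matched for transcript length, which is far shorter than the record in members such as RPL37A and RPS9. An xChIP H1.2 peak overlapped 51 (69.9%), against 65.4% and 81.7%, and an xChIP H1.5 peak 31 (42.5%), against 37.5% and 67.7%. Among the 5 with xxChIP H1.2 were RPSA (20.4% of the transcript), RPL37 (13%), RPL5 (12.9%) and RPS19 (8.27%). The 2 with xxChIP H1.5 were RPL27A (23.1%) and RPS23 (1.03%). RPS19 is the most frequently mutated Diamond-Blackfan anemia gene, and RPL5 is a large subunit protein that binds the MDM2 ubiquitin ligase when ribosome assembly is disturbed. The largest share among these 7 transcripts was that of RPL27A.

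Of the 30 small subunit genes, 22 (73.3%) had an xChIP H1.2 promoter peak and 11 (36.7%) an xChIP H1.5 peak. Of the 43 large subunit genes, 34 (79.1%) and 15 (34.9%) did. Mean gene coverage was 67.1% and 53.5% by xChIP H1.2 in small and large subunit genes, and 23.9% and 17.5% by xChIP H1.5. In xxChIP H1.2 it was 2.44% and 1.33%, and in xxChIP H1.5 1.08% and 0.742%. The differences between the subunits were not tested.

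The P-stalk genes, which encode the acidic proteins that recruit elongation factors to the large subunit, differed in their xChIP coverage. RPLP0 (chr12:120634502-120639038) had a promoter covered to 100% in xChIP H1.2 and to 96.8% in xChIP H1.5. RPLP2 (chr11:809965-812880) had 100% and 26.7%. RPLP1 (chr15:69745153-69748544) had 0% and 100%, and 41.1% of its gene was covered by xChIP H1.5. The flanks of RPLP1 were covered to 12.1% by xChIP H1.2, against 79.9% and 80.7% for RPLP0 and RPLP2. No xxChIP peak touched any of the 3 genes.

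The promoters of 5 members, among them RPL19, RPL35A, RPS25 and RPS3, were covered completely by both xChIP isotypes. The share of all genes with such promoters was not counted. Complete cover by xChIP H1.5, with or without H1.2, was found at 9.59% of member promoters, against 6.39% of similar genes and 5.85% of all genes. RPL35A and RPS25 were also covered over the whole gene by both, as was RPS26. The xChIP H1.2 peaks at RPL35A (chr3:197636498-197688655) and RPS25 (chr11:118852196-118893966) were 52158 and 41771 bp long, and the xChIP H1.5 peaks inside them 15437 and 6438 bp. RPS3 was covered to 89.6% in the xChIP H1.2 list and to 75.8% in the xChIP H1.5 list, and RPL19 to 100% and 27.3%. RPS3 lines the mRNA entry channel, and RPS25 is needed for initiation at several internal ribosome entry sites. RPL8, a protein near the peptidyl transferase center, was covered over 67.9% of its gene by xChIP H1.5.

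Reads from 50-base stretches that occur again elsewhere in hg19 cannot be mapped uniquely. Such stretches made up a median of 6.87% of a member's gene and 2.61% of its promoter.

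The 28 genes covered completely by xChIP H1.2 included RPL10A, RPL13A, RPL19, RPL23, RPL24 and RPL27. RPL10A (chr6:35436178-35438562) lay in a peak of 127508 bp, and all 4 members on chromosome 6 (RPL10A, RPS10, RPS12 and RPS18) were covered completely. On chromosome 3, all 7 members had an xChIP H1.2 promoter peak. On chromosome 2, 1 of 4 did, and on chromosome 19, 9 of 12. The shares over all genes of these chromosomes were not counted, so these counts cannot be called particular to the members. RPS14, a small subunit gene whose loss of 1 copy marks a form of myelodysplastic syndrome, was covered completely by xChIP H1.2, in a peak of 97479 bp, and to 0% by xChIP H1.5. RPSA, the small subunit protein also known as the laminin receptor precursor, had 100% of its promoter and 85.5% of its gene covered by xChIP H1.2 and 0% of both by xChIP H1.5.

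Among the 11 genes without a peak in any list were RPL13, RPL17, RPL26, RPL41, RPL7, RPL9, RPS15A, RPS27A, RPS6 and RPS7. RPS6 (chr9:19375713-19380234), the substrate of the ribosomal S6 kinases, lay 2694 bp from the nearest xChIP H1.2 peak and 20700 bp from the nearest xChIP H1.5 peak, with flanks covered to 54.4% by xChIP H1.2. RPL13, RPL17, RPL9 and RPS27A, whose genes were free of peaks, had an xChIP H1.2 peak within 1000 bp upstream of the start, at 499, 873, 830 and 726 bp. RPL41, the shortest ribosomal protein, and RPL26, which binds the p53 transcript, had no peak within their promoters either.

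Further features of the gene records were compared with the peaks. A small nucleolar RNA gene lay inside 27 members, 58 such genes in all, and 24 of these 27 hosts had an xChIP H1.2 promoter peak, against 32 of the 46 other members. A divergent neighbour began within 1000 bp of 14 members, and 12 of these had an xChIP H1.2 promoter peak, against 56 of all 73 members. How many of all genes hold such an RNA gene or have such a neighbour was not counted, so neither can be called particular to the members. Pooled over members, xChIP H1.2 peaks covered 52.9% of exon bases and 53.5% of intron bases, and xxChIP H1.2 peaks 1.78% and 6.79%. For xChIP H1.5 the shares were 17.5% and 17.7%, and for xxChIP H1.5 0.790% and 4.53%. Over all genes, 27.6% of exon and 29.2% of intron bases lay in xChIP H1.2 peaks, 10.8% and 16% in those of xChIP H1.5, 7.27% and 17.3% in those of xxChIP H1.2, and 6.05% and 14.3% in those of xxChIP H1.5.

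Other genes of the translation machinery were listed for comparison. Of the 20 members known as Diamond-Blackfan anemia genes, 14 (70.0%) had an xChIP H1.2 promoter peak, and of the other 53 members, 42 (79.2%). Of 78 mitochondrial ribosomal protein genes, 52 (66.7%) had an xChIP H1.2, 25 (32.1%) an xChIP H1.5, 4 (5.13%) an xxChIP H1.2 and 3 (3.85%) an xxChIP H1.5 promoter peak. Of 16 ribosome biogenesis factors, such as FBL, NCL and NOP56, 11 had an xChIP H1.2, 3 an xChIP H1.5 and 0 an xxChIP promoter peak. Of 15 other genes with TOP transcripts, such as EEF1A1, EEF2 and TPT1, 7 had an xChIP H1.2, 1 an xChIP H1.5, 1 an xxChIP H1.2 and 0 an xxChIP H1.5 peak. FAU, which encodes a ribosomal protein fused to a ubiquitin-like protein, had its promoter covered to 100% by xChIP H1.2 and no other promoter peak. Of 8 paralogues of members, such as RPL3L and RPS27L, 6 had an xChIP H1.2, 3 an xChIP H1.5 and 2 an xxChIP H1.2 promoter peak, and none an xxChIP H1.5 peak.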

How the data were processed

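H1.2 and H1.5 xChIP and xxChIP samples of HL-60/S4 cells were used through 4 deposited lists of peak start and end positions. The authors aligned reads to hg19 with Bowtie2, kept uniquely mapped reads and called peaks with MUSIC; each deposited list merged 3 replicates and holds no score, count or depth, so the precision from sequencing depth is unknown. Columns without scores were used as positions only. The 6 Input samples had no list. Groups were taken from the sample titles. Genes, canonical transcripts and exons were those of GENCODE release 44 lifted to GRCh37. The gene start was the 5′ end of the gene record. Coverage was the percent of bases of a window in peaks, and an overlap needed 1 bp. Similar genes shared promoter GC within 3 points and length within 1.5 times. Wilson 95% intervals cover counting error over genes; a count of 0 was given the limit of 3 counts. Python 3.11.15, numpy 2.4.6, scipy 1.17.1 and matplotlib 3.10.9 were used, and the coverage code was tested on simulated data. No canonical transcript was given for 30 genes, which were left out of those counts.

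Named genes were members with an xxChIP promoter peak, those with the 6 largest or smallest xChIP gene coverages (ties by name), those with promoters covered completely by both xChIP isotypes or genes free of peaks, RPLP0, RPLP1, RPLP2, RPSA and RPS14. Others named were chosen after their values were seen. The members and gene lists were chosen with earlier results of these data known. Alternatives were other windows, starts, peak lengths and rules for similar genes. Results for a few genes are not reported here by name.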

Additional observations from a re-analysis of the deposited data

How the results depend on the processing

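No paired analysis was possible because each list merges the 3 replicates, so no replicate could be left out either. Of 124 alternative values, 110 stayed near the reported ones, that is within 1.5 times for a count, within the 95% Wilson interval over 73 genes for a mean, and within the average one-sided margin of that interval for a difference. Among those that stayed near were all values without peaks under 1000 bp. These could hardly change, because no peak at a member gene or promoter was that short. Low means moved by more than 1.5 times inside the 95% Wilson interval. Mean gene coverage by xxChIP H1.2 was 4.85% with all bases pooled, 0.929% in exons and 1.03% in canonical transcripts, against 1.79%, and by xxChIP H1.5 it was 3.08%, 0.436% and 0.331%, against 0.883%. Without peaks of 20 kb or more, xChIP H1.2 promoter peaks fell to 18 members, mean gene coverage to 14.3%, the differences from similar genes to -1.74 points at promoters and -2.36 over genes, xChIP without xxChIP to 36 members and H1.2 without H1.5 to 11, while H1.5 without H1.2 rose to 18. With flank coverage within 10 points added as a condition after seeing the data, the xChIP H1.2 differences were 3.72 and 5.19 points. Within 2500 bp of the start, 4 members (5.48%) had an xxChIP H1.2 and 5 (6.85%) an xxChIP H1.5 peak, against 21.5% and 18.9% of all genes. With at least 50% of the window covered, 11 members had an xChIP H1.5 and 0 an xxChIP H1.5 promoter peak. At canonical starts, 2 had an xxChIP H1.5 peak. For other settings the differences kept their sign in all 4 lists, including a shared chromosome, a CpG ratio within 0.1, and the start and length of the canonical transcript, which was added after seeing the data. The cause of these changes was not tested, other than fewer bases in peaks where peaks were left out. Lists without scores limit all values to presence or absence of a peak, and a region without a peak can hold signal below the authors' threshold.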

Other observations

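Processed pseudogenes of the ribosomal protein genes, copies of their transcripts that were inserted elsewhere in the genome and lack the parent's promoter, were also covered. The annotation named 1389 of them after the 73 members, with a median length of 479 bp. Peaks covered on average 34.8% of a pseudogene in the xChIP H1.2 list, 17.3% in xChIP H1.5, 13.9% in xxChIP H1.2 and 11.8% in xxChIP H1.5. The exons of the members themselves were covered to 56.3%, 19.6%, 0.929% and 0.436%, and the autosomes to 27.0%, 16.7%, 20.5% and 17.5%. RPL21, with 128 pseudogenes, had the most, and these were covered to 34.6%, 17.6%, 17.7% and 17.9%. Coverage by the xxChIP lists was thus higher in the pseudogenes than in the exons of the members in these lists. Copies so close in sequence share reads, and how many reads the uniqueness filter removed from each was not tested.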
